A study of Rattus norvegicus with 30 samples.

Results

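The complement components and regulators described here are the 9 genes *C3*, *C2*, *Cfb*, *Cfi*, *C1r*, *C1s*, *Serping1*, *C3ar1* and *C5ar1*, taken as every row of the deposited gene table that carries one of these symbols. The table of 32545 rows held 10 such rows, because *C2* names 2 of them, and 9 of the 10 rows had counts. They were chosen by symbol, with earlier results of these data known. In the kidneys of rats switched to a high salt diet, 7 of the 9 measured rows rose in the cortex by 21 d. Of all genes tested there, 18.9% were raised and 20.5% lowered. *C3* rose by 5.48-fold, 1 of the 2 *C2* rows by 7.69-fold and the *C1s* protease by 3.04-fold. The second *C2* row did not pass the test (1.84-fold, adjusted *P* = 0.0565, edgeR). In the outer medulla *C3* rose by 4.02-fold by 21 d. It alone passed the main test there, where 0.639% of all genes tested were raised and 0.131% lowered. That call was lost in 5 of the 10 fits that each left out 1 library, and other methods called more rows.

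Complement is a set of plasma and cell-surface proteins that tag particles and cells for removal. The classical pathway starts when C1q binds a target and activates the proteases C1r and C1s, which cut C4 and C2 to build an enzyme that cleaves C3, and the alternative pathway builds a like enzyme from C3b and factor B, the product of *Cfb*. The C1 inhibitor, encoded by *Serping1*, blocks C1r and C1s, and factor I, encoded by *Cfi*, cuts and inactivates C3b. The fragments C3a and C5a act on the receptors encoded by *C3ar1* and *C5ar1*, which are carried by myeloid cells. The liver supplies most circulating complement, and the kidney is known to make C3 locally in tubules and in immune cells.

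The mRNAseq data came from male Sprague-Dawley rats, an outbred strain that is resistant to salt-induced hypertension. Cortex (Cx) and outer medulla (OM) of the right kidney were taken from rats fed the 0.4% NaCl AIN-76A diet (LS, day 0) and from rats fed the 4.0% NaCl diet for 14 d (HS14) or 21 d (HS21). Each of the 6 groups of tissue and diet had 5 libraries, which were made from poly(A)-selected RNA and numbered 1 to 15 in each tissue. The labels do not say whether a number marks the same rat in Cx and OM. Each library held RNA of a whole piece of tissue, so that fewer cells of a type and less RNA per cell cannot be told apart. Levels are given as CPM, the counts of a gene relative to the total count of its library, after trimmed-mean scaling of the totals, and levels of different genes are compared only as FPKM, which also divides by gene length.

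Between 5408126 and 21842843 reads per library were counted on genes, and the next lowest total after the OM HS14 library of replicate 10 was 12748841. *Umod*, a marker of the thick ascending limb, which fills the OM, was between 5498 and 13550 CPM in the OM libraries and between 853 and 2196 CPM in the Cx libraries, so the tissue labels separated without overlap. The OM LS library of replicate 2 had 4310 CPM of the proximal tubule transporter *Slc34a1* and 347 CPM of the distal convoluted tubule transporter *Slc12a3*, the highest of the 15 OM libraries, whose next values were 1488 and 51.3 CPM. That library was the lowest of OM LS in 8 of the 9 measured rows, and the ratios, counts and interaction terms that use OM LS are also given below without it.

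On the Rnor_6.0 build used by the authors, *C3* (ENSRNOG00000046834) lay at chr9:9721105-9747167 on the plus strand, and *Cfi* (ENSRNOG00000053400) at chr2:235264219-235305781 on the plus strand. *C1r* (ENSRNOG00000011796, chr4:157125998-157136829, plus strand) and *C1s* (ENSRNOG00000011971, chr4:157143592-157155609, minus strand) were neighbours. *Serping1* (ENSRNOG00000007457) lay at chr3:72161189-72171078, *C3ar1* (ENSRNOG00000009211) at chr4:155684029-155690869 and *C5ar1* (ENSRNOG00000047800) at chr1:78186776-78195328, each on the minus strand. The *Cfb* row (ENSRNOG00000000419, chr20:4536263-4561062, minus strand) had a count of 0 in all 30 libraries. It covered 99.5% of the span of the *C2* row (ENSRNOG00000051235, chr20:4542340-4561152) and 99.1% of the span of the second *C2* row (ENSRNOG00000051158, chr20:4536203-4542947), which had 2268 and 587 counts summed over the 30 libraries. By its default setting the authors' counting tool, featureCounts, assigns no read that overlaps more than 1 gene, so the count of 0 gives no level for *Cfb*, and both *C2* rows can miss reads from bases shared with the *Cfb* row. In the RefSeq gene order of rat, *Cfb* stands between *C2* and *Nelfe*. The second *C2* row lies next to *Nelfe* and is kept here under the name that the table gives.

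**Figure D1:**
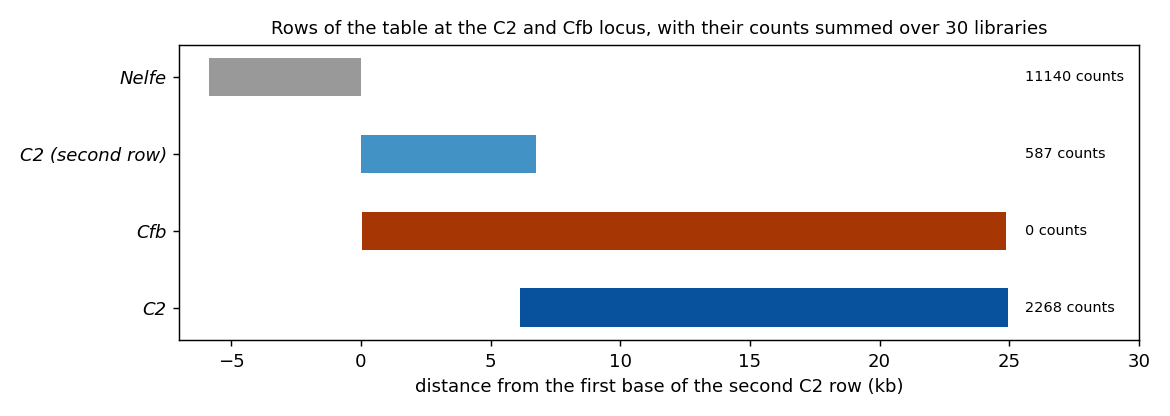
Spans of the rows at the *C2* and *Cfb* locus, with the distance from the first base of the second *C2* row in kb on the x axis and 1 bar per row of the table. The *Cfb* bar lies over both *C2* bars and its row has 0 counts, against 2268 for *C2* and 587 for the second *C2* row.

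Promoter sequences are shown for the members that RefSeq's table on the GRCr8 build held, which were 4 of the 9: *C3*, *C1r* and *C3ar1*, which rose in Cx at HS21, and *Cfi*, which did not pass the test. Each runs from 250 bases before to 50 bases after the start of the gene, 5′ to 3′ on the gene's strand. Capitals mark the letters GGGNNNNNCC, a loose form of the site bound by NF-kB factors, found on either strand.
C3, chr9:2201290-2201589, minus strand: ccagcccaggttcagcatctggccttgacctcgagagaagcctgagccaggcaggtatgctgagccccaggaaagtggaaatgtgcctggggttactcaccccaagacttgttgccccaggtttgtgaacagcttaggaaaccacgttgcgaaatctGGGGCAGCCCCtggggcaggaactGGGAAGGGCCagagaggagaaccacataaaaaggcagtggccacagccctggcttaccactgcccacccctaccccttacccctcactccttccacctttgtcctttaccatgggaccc
C1r, chr4:159098763-159099062, plus strand: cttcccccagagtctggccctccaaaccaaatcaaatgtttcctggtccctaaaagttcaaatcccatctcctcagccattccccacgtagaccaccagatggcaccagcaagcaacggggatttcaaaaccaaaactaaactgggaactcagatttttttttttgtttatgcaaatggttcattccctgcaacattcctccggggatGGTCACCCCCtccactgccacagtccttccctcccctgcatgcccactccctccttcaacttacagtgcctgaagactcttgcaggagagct
C3ar1, chr4:157756481-157756780, minus strand: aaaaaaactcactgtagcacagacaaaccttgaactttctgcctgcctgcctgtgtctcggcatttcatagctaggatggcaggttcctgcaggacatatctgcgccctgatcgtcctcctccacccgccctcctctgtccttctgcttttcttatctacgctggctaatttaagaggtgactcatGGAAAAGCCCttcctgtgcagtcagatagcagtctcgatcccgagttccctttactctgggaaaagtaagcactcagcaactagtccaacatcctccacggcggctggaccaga
Cfi, chr2:221063066-221063365, plus strand: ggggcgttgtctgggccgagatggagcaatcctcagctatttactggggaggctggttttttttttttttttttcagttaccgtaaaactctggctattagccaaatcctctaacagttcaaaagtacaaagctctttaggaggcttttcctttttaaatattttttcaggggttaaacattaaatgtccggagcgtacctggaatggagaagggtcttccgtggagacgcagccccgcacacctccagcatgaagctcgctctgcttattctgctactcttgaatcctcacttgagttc

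The *C3* promoter held matches that began 93, 92 and 69 bases before the start, the first pair overlapping each other. The *C1r* promoter held 1 match, 42 bases before the start, and the *C3ar1* promoter held 1 match, 64 bases before the start, both on the opposite strand. The *Cfi* promoter held no match. These letters occur by themselves in 47.3% of the 33469 promoters of that table. The letters TTCNNNGAA, bound by STAT factors, occurred in 8.87% of all promoters, GAAANNGAAA, bound by interferon regulatory factors, in 3.92%, and TATAAA on the gene's strand in 8.80%, and none of the 4 promoters shown held any of these. *C2*, *Cfb*, *C1s*, *Serping1* and *C5ar1* had no entry in the table.

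On the LS diet, the C1 proteases and their inhibitor had the highest FPKM of the measured rows in both tissues. In Cx, *C1r* had 26.1 ± 4.51 FPKM (SD, n = 5), *Serping1* had 23.5 ± 3.10, *C1s* had 12.4 ± 1.81 and *C3* had 5.02 ± 0.888 FPKM. The receptors and *Cfi* were lower, at 2.85 ± 0.402 FPKM for *C5ar1*, 2.44 ± 0.233 for *C3ar1* and 1.80 ± 0.851 for *Cfi*. The *C2* rows had 0.508 ± 0.0837 and 0.294 ± 0.0600 FPKM. Both can miss reads shared with the *Cfb* row, so these values can be too low and were not ranked against the other genes. The FPKM ranges over libraries overlapped for *C1r* and *Serping1*, for *C5ar1* and *C3ar1*, and for *Cfi* and each of the receptors. In OM LS *Serping1* led with 88.7 ± 36.2 FPKM, before *C1r* with 32.3 ± 17.3, *C1s* with 16.3 ± 10.2, *C3* with 3.98 ± 1.01 and *C5ar1* with 3.64 ± 1.94 FPKM. The ranges over the OM LS libraries overlapped for each neighbouring pair in this order.

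*Serping1* was the member that was higher in the OM than in the Cx before the change of diet. Its OM LS libraries, replicates 1 to 5, had 135, 272, 176, 171 and 90.0 CPM, and its Cx LS libraries had 43.2, 38.4, 51.7, 38.9 and 48.4 CPM. All OM values lay above all Cx values, and the log2 ratio was 1.94 (SE 0.26, adjusted *P* = 0.000248, edgeR). *Cfi* was lower in the OM, at 1.56 ± 0.789 CPM against 3.74 ± 1.78 CPM (log2 ratio -1.25, SE 0.45, adjusted *P* = 0.0480), with all OM values below all Cx values. Among all genes tested, 21.3% were higher and 19.5% were lower in the OM, against 1 of 9 tested rows in each direction here. The *Cfi* call was also lost with the replicate number as a block (log2 ratio -1.30, adjusted *P* = 0.0765), and when any of 7 libraries was left out, Cx LS replicates 1, 2, 3 and 4 or OM LS replicates 1, 3 and 4. Without OM LS replicate 2, *C2* was also higher in the OM (log2 ratio 0.88, adjusted *P* = 0.0172), *Serping1* stood at 1.68 (adjusted *P* = 5.35e-05) and *Cfi* at -1.01 (adjusted *P* = 0.0255).

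**Figure D2:**
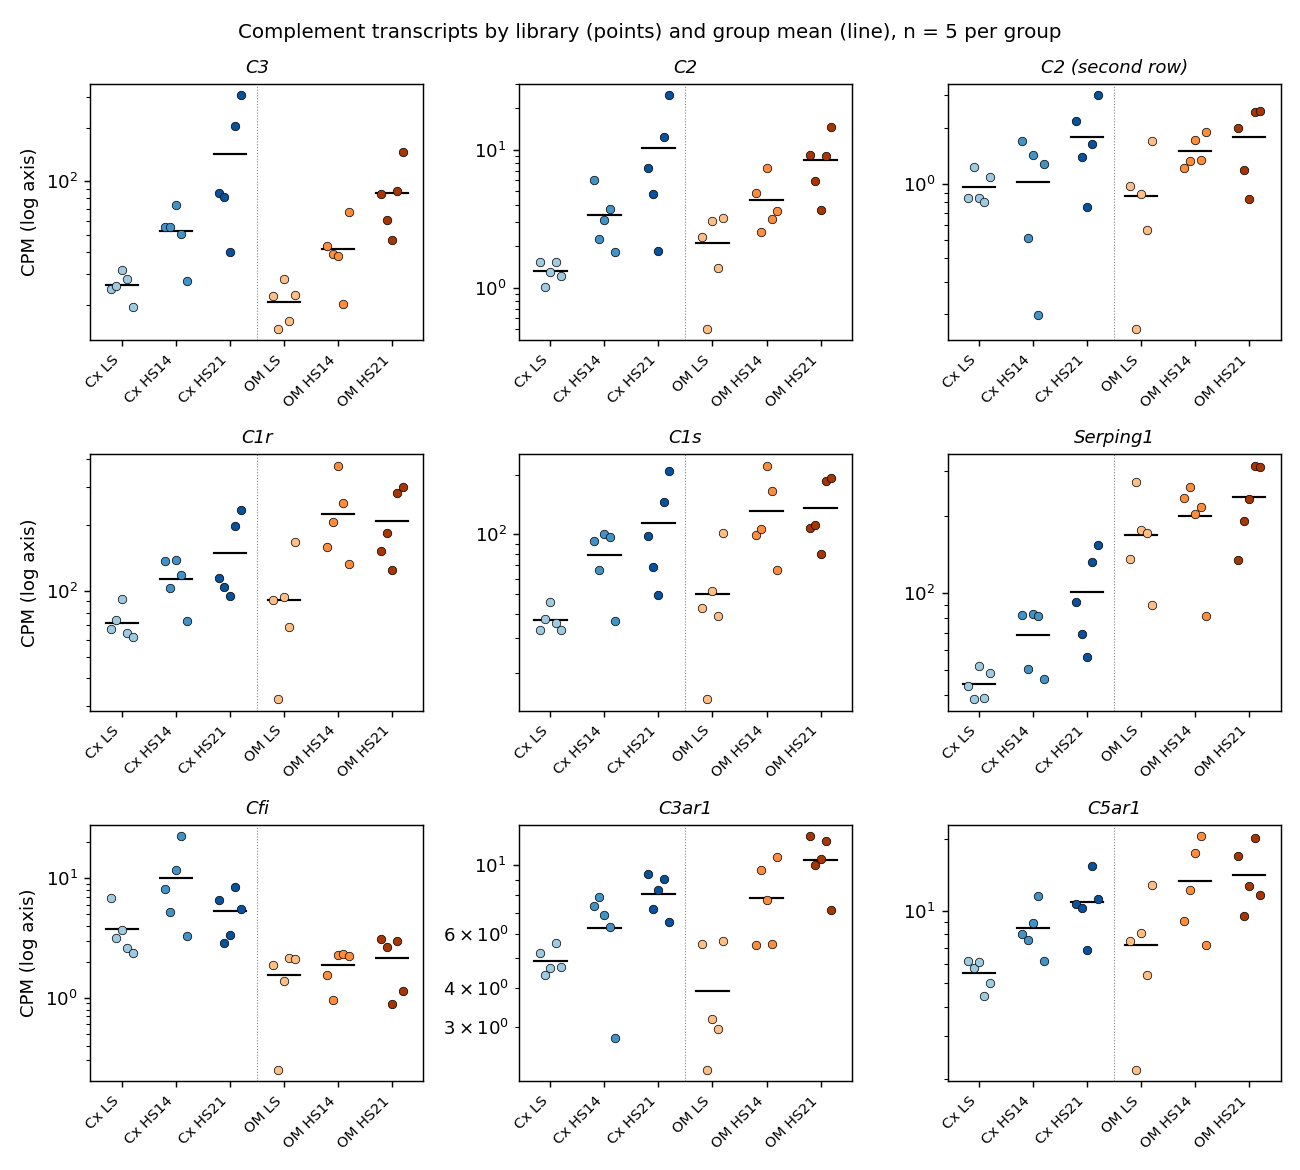
Level of each measured row in CPM on a log axis (y) for the 6 groups of tissue and diet (x), with 1 point per library in order of replicate number from left to right and a line at the mean of 5. In Cx the HS21 points of *C3*, *C2*, *C1r*, *C1s*, *Serping1*, *C3ar1* and *C5ar1* all lie above the LS points, and *Serping1* is higher in OM LS than in Cx LS.

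*C3*, on which all complement pathways converge, rose in the Cx at both times. Its Cx LS libraries, replicates 1 to 5, had 24.7, 25.5, 31.6, 28.2 and 19.5 CPM. The Cx HS14 libraries, replicates 6 to 10, had 55.6, 55.3, 73.6, 50.5 and 27.3 CPM, and the Cx HS21 libraries, replicates 11 to 15, had 85.7, 81.3, 39.8, 204 and 306 CPM. At HS14 all libraries but replicate 10 were above LS, and at HS21 all 5 were, with a 7.68-fold span between replicates 13 and 15. The log2 ratio to LS was 0.999 (SE 0.21, adjusted *P* = 0.0353) at HS14 and 2.45 (SE 0.47, adjusted *P* = 0.00175) at HS21. In an exact two-sided permutation test of the HS21 values alone *P* was 0.00794, the smallest that 5 against 5 libraries allow.

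In the OM, *C3* rose at HS21. The OM LS libraries had 22.6, 14.8, 28.0, 16.3 and 22.9 CPM, the OM HS14 libraries had 43.4, 39.1, 37.9, 20.4 and 66.9 CPM, and the OM HS21 libraries had 84.6, 60.4, 46.5, 88.6 and 147 CPM. Every HS21 library was above every LS library, whereas the HS14 library of replicate 9 lay within LS. The log2 ratio was 0.99 (SE 0.30, adjusted *P* = 0.574) at HS14 and 2.01 (SE 0.31, adjusted *P* = 0.0280) at HS21. The highest HS14 value came from replicate 10, the library with the fewest counts. Without that library the HS14 ratio of *C3* was 0.73 and did not pass the test either. Without OM LS replicate 2 the HS21 ratio of *C3* was 1.91 (adjusted *P* = 0.0418). The HS21 call was lost when OM LS replicate 1, 3 or 4 or OM HS21 replicate 11 or 14 was left out, with log2 ratios between 1.72 and 2.17 over the 10 leave-one-out fits.

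*C2*, the protease of the classical C3-cleaving enzyme, had low counts and the largest ratio of the members in Cx at HS21. In Cx LS it had 1.53, 1.01, 1.29, 1.53 and 1.22 CPM, in Cx HS14 6.09, 2.27, 3.11, 3.69 and 1.80 CPM, and in Cx HS21 7.34, 4.81, 1.85, 12.5 and 24.9 CPM. These were 13 to 21 counts per LS library and 27 to 366 per HS21 library, with no overlap between LS and either HS group. The log2 ratio to LS was 1.34 (SE 0.31, adjusted *P* = 0.0477) at HS14 and 2.94 (SE 0.58, adjusted *P* = 0.00213) at HS21. Without Cx HS21 replicate 15, the highest library, the HS21 ratio of *C2* was 2.32 (adjusted *P* = 0.00245). In the OM, HS21 libraries had 9.14, 5.97, 3.63, 8.99 and 14.6 CPM against 2.33, 0.504, 3.04, 1.39 and 3.19 CPM in LS, again without overlap. That ratio did not pass the test across all genes (log2 ratio 1.99, SE 0.48, adjusted *P* = 0.0979). The second *C2* row, with 2 to 44 counts per library, had log2 ratios of 0.88 (SE 0.33, adjusted *P* = 0.0565) in Cx HS21 and 1.02 (SE 0.49, adjusted *P* = 0.493) in OM HS21.

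Of the C1 proteases, *C1s* rose in the Cx at both times and *C1r* at HS21, and the difference between the genes was not tested. *C1s* had 33.0, 37.5, 45.8, 35.9 and 33.2 CPM in Cx LS, 92.7, 66.5, 101, 97.5 and 36.9 CPM in Cx HS14, and 97.8, 68.2, 49.7, 146 and 208 CPM in Cx HS21. All HS21 libraries and 4 of the 5 HS14 libraries were above LS, with log2 ratios of 1.61 (SE 0.33, adjusted *P* = 0.00257) and 1.07 (SE 0.22, adjusted *P* = 0.0353). *C1r* had 67.6, 73.7, 91.9, 64.2 and 61.7 CPM in Cx LS and 115, 105, 95.2, 198 and 234 CPM in Cx HS21 (log2 ratio 1.04, SE 0.24, adjusted *P* = 0.00558). The lowest HS21 value of *C1r* exceeded the highest LS value by a small margin. At HS14 its log2 ratio was 0.65 (SE 0.16, adjusted *P* = 0.0618). In the OM the LS libraries were spread 6.84-fold for *C1s* and 5.22-fold for *C1r*, from replicate 2 to replicate 5, and neither HS group passed the test. The OM log2 ratios of *C1s* were 1.40 (SE 0.46) at HS14 and 1.42 (SE 0.44) at HS21, and those of *C1r* were 1.30 (SE 0.40) and 1.18 (SE 0.39), with adjusted *P* of 0.183 or more.

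Of the inhibitors, *Serping1* rose in the Cx at HS21 and *Cfi* did not pass the test in either tissue. *Serping1* had 92.5, 68.8, 56.2, 132 and 154 CPM in Cx HS21, all above the LS values given above (log2 ratio 1.18, SE 0.24, adjusted *P* = 0.00279). In Cx HS14 it had 82.3, 50.4, 82.8, 81.5 and 46.1 CPM, of which 3 were above all LS values (log2 ratio 0.62, SE 0.17, adjusted *P* = 0.0777). In OM HS21 it had 135, 192, 234, 315 and 312 CPM, which overlapped OM LS (log2 ratio 0.46, 95% interval -0.22 to 1.14, adjusted *P* = 0.679). *Cfi* had 6.79, 3.18, 3.73, 2.62 and 2.37 CPM in Cx LS, 8.07, 5.26, 11.6, 22.5 and 3.29 CPM in Cx HS14 and 6.57, 2.87, 3.37, 8.41 and 5.58 CPM in Cx HS21. Its largest value was in HS14 replicate 9 and the groups overlapped, with log2 ratios of 1.43 (SE 0.47, adjusted *P* = 0.135) at HS14 and 0.51 (SE 0.35, 95% interval -0.26 to 1.27, adjusted *P* = 0.274) at HS21. Without HS14 replicate 9 the HS14 ratio of *Cfi* was 0.91 (adjusted *P* = 0.277).

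Both anaphylatoxin receptors rose in the Cx at HS21, by less than *C3*. *C3ar1* had 5.19, 4.42, 4.65, 5.61 and 4.68 CPM in Cx LS and 9.38, 7.21, 8.31, 9.0 and 6.54 CPM in Cx HS21 (log2 ratio 0.70, SE 0.14, adjusted *P* = 0.00194). *C5ar1* had 6.18, 5.82, 6.17, 4.45 and 5.0 CPM in Cx LS and 10.7, 10.4, 6.87, 15.4 and 11.2 CPM in Cx HS21 (log2 ratio 0.97, SE 0.19, adjusted *P* = 0.00229). Neither receptor's groups overlapped. At HS14 the log2 ratios were 0.33 (SE 0.23, adjusted *P* = 0.524) for *C3ar1* and 0.60 (SE 0.17, adjusted *P* = 0.0906) for *C5ar1*. All HS14 libraries of *C5ar1* were above LS, but by almost nothing. The lowest, replicate 10, had 6.184 CPM, and the highest LS library, replicate 1, had 6.181 CPM. In the OM, *C3ar1* had 12.4, 10.04, 10.5, 12.03 and 7.17 CPM at HS21 against 5.58, 2.18, 3.17, 2.96 and 5.70 CPM on LS. Those groups did not overlap either, and the ratio missed the threshold (log2 ratio 1.39, SE 0.28, adjusted *P* = 0.0575). The OM HS21 value of *C5ar1* was 14.2 ± 4.33 CPM against 7.22 ± 3.90 CPM on LS (log2 ratio 0.96, SE 0.38, adjusted *P* = 0.360).

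Counted over the 9 tested rows, 3 rose in Cx at HS14 (*C3*, *C2* and *C1s*), against 1.14% of the 14181 genes tested, and none fell, against 1.18%. In 2 rows (*C2* and *C5ar1*) all HS14 libraries were above all LS libraries, as in 3.06% of all genes tested. For *C5ar1* the margin was 6.184 against 6.181 CPM. The HS14 calls of *C3*, *C2* and *C1s* were lost in 8 of the 10 leave-one-out fits, which were those without any 1 of the LS libraries or without HS14 replicate 6, 8 or 9, and the count went from 0 to 6, the highest without HS14 replicate 10. In Cx at HS21, 7 rows rose, against 18.9% of the 14299 genes tested, and none fell, against 20.5%. The same 7 rows had all HS21 libraries above all LS libraries, against 12.6% of all genes tested, and none of the 7 calls was lost in the 10 leave-one-out fits. The median log2 ratio over the 9 rows was 0.65 at HS14 and 1.04 at HS21, beside -0.0021 and 0.0046 over all genes tested. With total-count scaling the median of all genes moved to 0.13 at HS21, where 4401 genes were raised and 1653 lowered in place of 2702 and 2936, and 8 of the 9 rows were then raised.

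In the OM no row passed the test at HS14 with edgeR, where 0.00694% of the 14417 genes tested were raised and 0% lowered; 5 rows were higher and none lower at an unadjusted *P* under 0.05, and DESeq2 and limma also called none. No row had all HS14 libraries above all LS libraries, against 1.05% of all genes. At HS21 *C3* rose, 1 of 9 rows, against 0.639% of the 14555 genes tested, and none fell, against 0.131%. All HS21 libraries were above all LS libraries for *C3*, *C2* and *C3ar1*, 3 of 9 rows, against 2.64% of all genes. DESeq2 raised 4 rows there and limma on FPKM 2. Without OM LS replicate 2, no row passed at HS14 and *C3* alone did at HS21. The HS14 log2 ratios were then 0.89 for *C3*, 0.78 for *C2*, 0.53 for the second *C2* row, 1.16 for *C1s*, 1.08 for *C1r*, 0.46 for *Serping1*, -0.019 for *Cfi*, 0.84 for *C3ar1* and 0.66 for *C5ar1*. At HS21 they were 1.75 for *C2*, 0.77 for the second *C2* row, 1.19 for *C1s*, 0.97 for *C1r*, 0.70 for *Serping1* in place of 0.46, 0.18 for *Cfi* in place of 0.44, 1.24 for *C3ar1* and 0.73 for *C5ar1*, with adjusted *P* of 0.0630 or more. The median log2 ratio over the 9 rows was 0.99 at HS14 and 1.18 at HS21, beside -0.023 and -0.031 over all genes tested. The HS14 and HS21 ratios of a tissue share its LS libraries. OM LS replicate 5 stood at the other end from replicate 2, as the highest of OM LS in 6 of the 9 rows. Without replicate 5, *C3* and *C3ar1* passed at HS21. *C1s* and *C1r* then had log2 ratios of 1.83 and 1.51 and did not pass.

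**Figure D3:**
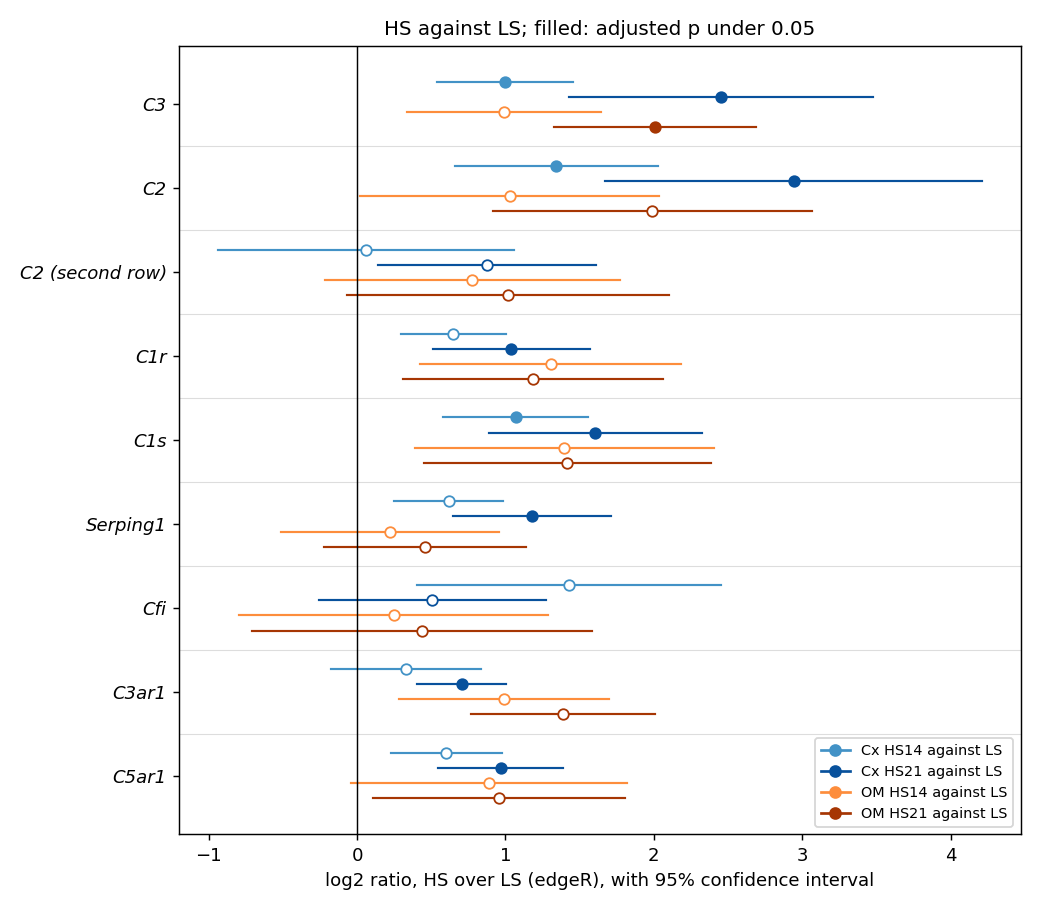
Log2 ratio of HS to LS for each measured row (x) with its 95% confidence interval from edgeR, for Cx and OM at HS14 and HS21, with filled points for an adjusted *P* under 0.05. The 36 points all lie above 0, from 0.06 for the second *C2* row in Cx HS14 to 2.94 for *C2* in Cx HS21, and 11 are filled.

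Between HS14 and HS21 no row passed the test in either tissue. In Cx, where 6.50% of the 14395 genes tested were higher and 9.69% lower at HS21 than at HS14, 2 rows were higher at an unadjusted *P* under 0.05, *C3* at 1.46 on the log2 scale (SE 0.48, adjusted *P* = 0.0580) and *C2* with 1.60 (SE 0.58, adjusted *P* = 0.0799). Without HS21 replicate 15 the ratio of *C2* was 0.97 (adjusted *P* = 0.217), and without HS21 replicate 13 both *C3* and *C2* passed the test. DESeq2 called 1 row higher and limma none. *Cfi* had the opposite sign, at -0.92 (SE 0.47, adjusted *P* = 0.197). In OM, where edgeR called 0% of the 14499 genes tested in either direction, the log2 ratios were 1.01 (SE 0.36) for *C3* and 0.96 (SE 0.39) for *C2*, each with an adjusted *P* of 0.961, and these 2 rows were those with an unadjusted *P* under 0.05. DESeq2 and limma called no row in that comparison.

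The difference between the tissues in their response at HS21, the interaction term of edgeR fitted on 20 libraries, was called for 0.665% of the 15194 genes tested and for none of the 9 rows. *C3ar1* had the largest positive term, 0.68 (SE 0.31, unadjusted *P* = 0.0412, adjusted *P* = 0.298), and was the 1 row with an unadjusted *P* under 0.05. *C2* had the largest negative term, -0.97 (SE 0.78, adjusted *P* = 0.578), and *Serping1* had -0.72 (SE 0.42, adjusted *P* = 0.424). The term of *C3* was -0.45 with a 95% interval from -1.67 to 0.76. Without OM LS replicate 2 none of the 9 rows was called either, with terms of 0.56 for *C3ar1*, -1.18 for *C2*, -0.45 for *Serping1* and -0.53 for *C3*, and without Cx HS21 replicate 15 the term of *C2* was -0.33. DESeq2 and limma called none of the 9 rows, and the width of these intervals leaves differences of more than 2-fold in either direction undetectable for several rows.

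The 5 HS21 libraries differed widely among themselves. In Cx, replicate 15 had the highest value in 6 of the 9 rows and replicate 13 the lowest in 7. In OM, the library numbered 15 was highest in 5 rows and that numbered 13 lowest in 6. *C3ar1* ran otherwise, since replicate 11 was highest and replicate 15 lowest in both tissues. *C5ar1* was highest in replicate 14 in both. The coefficient of variation over the Cx HS21 libraries was 76.4% for *C3* and 88.2% for *C2*, and 14.8% for *C3ar1*. On the log2 scale the Cx HS21 libraries stood 3.57 (replicate 15) to 0.63 (replicate 13) above the LS mean for *C3*.

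**Figure D4:**
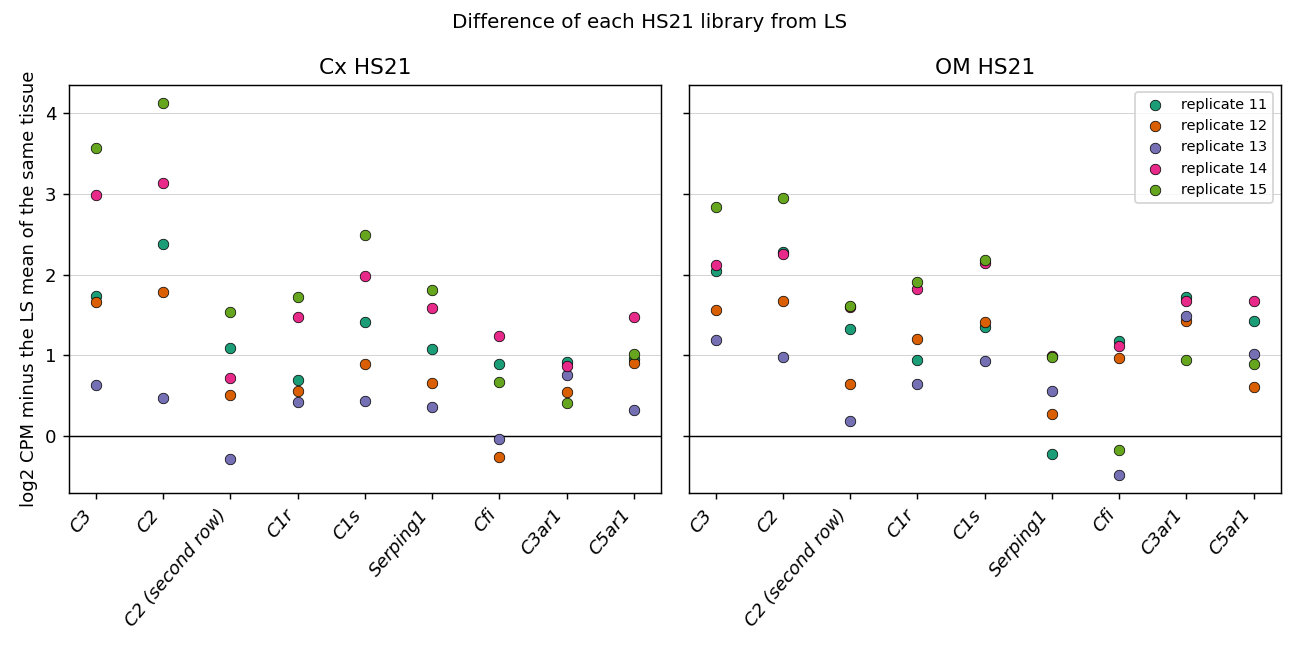
Log2 CPM of each HS21 library minus the LS mean of its tissue (y) for each measured row (x), Cx on the left and OM on the right, coloured by replicate number. Replicate 15 is highest for *C3* and *C2* in both tissues and lowest for *C3ar1*, and replicate 13 is lowest for *C3* and *C2*.

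Over the Cx HS21 libraries, sums of general leukocyte, macrophage, T cell and neutrophil markers had the order of *C3*, *C2*, *C1r*, *C1s* and *Serping1*. *C3ar1*, *C5ar1*, *Cfi* and the second *C2* row had other orders. In Cx at HS21, 7 of 7 tested general leukocyte markers (8 listed) and 9 of 9 macrophage markers (10 listed) rose. So did 4 of 4 tested T cell markers (6 listed) and 2 of 2 neutrophil markers (6 listed), against 18.9% of all genes tested. A marker with few counts on LS could enter the test through its HS21 libraries alone, which favours a rise. No B cell marker had enough counts to be tested. The summed level of the 10 macrophage markers was 230 to 333 CPM in Cx LS, 372 to 691 CPM in Cx HS14 and 430 to 3003 CPM in Cx HS21. Over the 30 libraries *Lyz2* reached 2554 CPM, and the next highest of these markers, *Csf1r*, at most 209 CPM. The highest sum was therefore mostly of *Lyz2*. Over the Cx HS21 libraries the macrophage sum was 3003 CPM in replicate 15, 1770 in 14, 1177 in 11, 672 in 12 and 430 in 13. *C3*, *C2*, *C1r*, *C1s* and *Serping1* had the same order. The general leukocyte sum and the T cell sum had that order too, from 756 to 248 CPM and from 69.5 to 9.62 CPM. In OM at HS21, 4 of 7 tested general leukocyte, 1 of 5 T cell, 1 of 2 neutrophil and 0 of 9 macrophage markers rose. Of all genes tested there, 0.639% were raised. The macrophage sum in OM was 153 to 799 CPM on LS and 771 to 1964 CPM at HS21. At HS21 it was highest in replicate 15, the library where *C3ar1* was lowest. The summed neutrophil markers had 4.57 to 35.8 CPM in Cx HS14 and 8.24 to 19.5 CPM in Cx HS21. Over the Cx HS21 libraries they had the order of *C3* too. The neutrophil marker *Mpo* was at 0 in 27 of the 30 libraries. The part of these cells in the results for complement genes was not tested.

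Other cell types moved less or in the other direction. All 6 proximal tubule markers fell in Cx at HS21, where their sum was 9086 to 12080 CPM against 15300 to 16930 CPM on LS. In the same comparison 1 of 7 tested fibroblast, 2 of 6 endothelial and 3 of 4 podocyte markers rose. So did 2 of 3 thick ascending limb, 2 of 2 distal convoluted tubule and 3 of 4 collecting duct markers. Of all genes tested there, 18.9% were raised and 20.5% lowered, so the fibroblast count was near the share of all genes. Of the 6 hepatocyte markers, *Alb*, *Ttr*, *Serpina1* and *Apoa1* were at 0 in 18, 23, 24 and 3 of the 30 libraries and reached at most 0.588 CPM. *Apoh*, with 0.204 to 8.73 CPM, and *Cyp2e1*, with 5.70 to 368 CPM, were never at 0. The 6 markers summed to 310 to 360 CPM in Cx LS and 260 to 289 CPM in Cx HS21, and of the 2 that could be tested there 1 rose and 1 fell. The share of mapped bases in introns was higher in every Cx HS21 library than in every Cx LS library. With that share as a covariate, which in this comparison cannot be told apart from diet, 5 of the 7 Cx calls at HS21 held, with higher log2 ratios of 3.36 for *C3*, 4.10 for *C2*, 2.35 for *C1s*, 1.55 for *C1r* and 1.70 for *Serping1*. The calls of *C3ar1* (log2 ratio 0.76, adjusted *P* = 0.10) and *C5ar1* (log2 ratio 0.94, adjusted *P* = 0.129) were lost at ratios close to those without the covariate. The OM call of *C3* at HS21 was lost as well (log2 ratio 1.95, adjusted *P* = 0.0870), where the intron shares of the groups overlapped.

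The rest of the complement system was read from 40 further symbols, of which 39 were in the table, on 40 rows. In Cx at HS21, 14 of the 27 tested rows rose and 1 fell, against 18.9% and 20.5% of all genes, with a median log2 ratio of 0.67. The recognition subunits *C1qa*, *C1qb* and *C1qc* rose by 1.84 (SE 0.34), 1.89 (SE 0.39) and 1.78 (SE 0.35) on the log2 scale. *C1qa* went from 24.0 ± 4.35 CPM to 87.1 ± 51.7 CPM. *C4b* rose by 1.93 (SE 0.47), while the rows named *C4a* had log2 ratios of 0.034 and 1.25 and did not pass the test. *C4a* and *C4b* are near-identical copies, and the division of reads between them is uncertain.

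In the other roles, the rises in Cx were of *Fcnb* (3.46, SE 0.61), a ficolin of the lectin pathway, *Masp2* (0.30, SE 0.08), its protease, properdin *Cfp* (1.16, SE 0.23), which stabilises the alternative enzyme, and *C6* (1.81, SE 0.51) of the terminal pathway. *Fcnb* was near the floor in Cx LS, at 0.449 to 0.685 CPM, against 1.03 to 13.3 CPM in Cx HS21. It had too few counts to be tested in Cx HS14 against LS. *C6* was also low, at 0.292 to 1.22 CPM in Cx LS and 0.824 to 5.24 CPM in Cx HS21. Genes this low on LS could enter the test through their HS21 libraries alone, which favours a rise. Both are counted among the rows that rose. The fluid-phase regulator clusterin *Clu* (0.80, SE 0.11) rose, as did the membrane regulators *Cd55* (0.71, SE 0.12) and *Cd59* (0.39, SE 0.08). The receptor chains *Itgam* (2.27, SE 0.35) and *Itgb2* (1.79, SE 0.18), which together form complement receptor 3 of myeloid cells, rose too. *C5*, which the table lists as *Hc*, was the row that fell, from 211 ± 15.6 CPM to 117 ± 11.9 CPM (log2 ratio -0.87, SE 0.08, adjusted *P* = 2.19e-05). The adjusted *P* of these rises was at most 0.0149 with edgeR.

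In OM at HS21, 5 of 27 tested rows rose and none fell, against 0.639% and 0.131% of all genes. They were *C4b* (2.42, SE 0.40), *C7* of the terminal pathway (1.66, SE 0.27), *Itgam* (2.27, SE 0.39), *Itgax* (1.46, SE 0.14) and *Itgb2* (1.22, SE 0.12). The OM log2 ratios of *C1qa*, *C1qb* and *C1qc* were 1.42, 1.61 and 1.32, with adjusted *P* of 0.125 or more. At HS14, 3 of 26 tested rows rose in Cx, *Itgam* (1.5, SE 0.26), *Itgb2* (0.79, SE 0.13) and *Clu* (0.35, SE 0.08), against 1.14% of all genes. In OM at HS14 none of 25 rose, where 0.00694% of all genes were raised. With DESeq2 the count in OM at HS21 was 11 in place of 5.

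**Figure D5:**
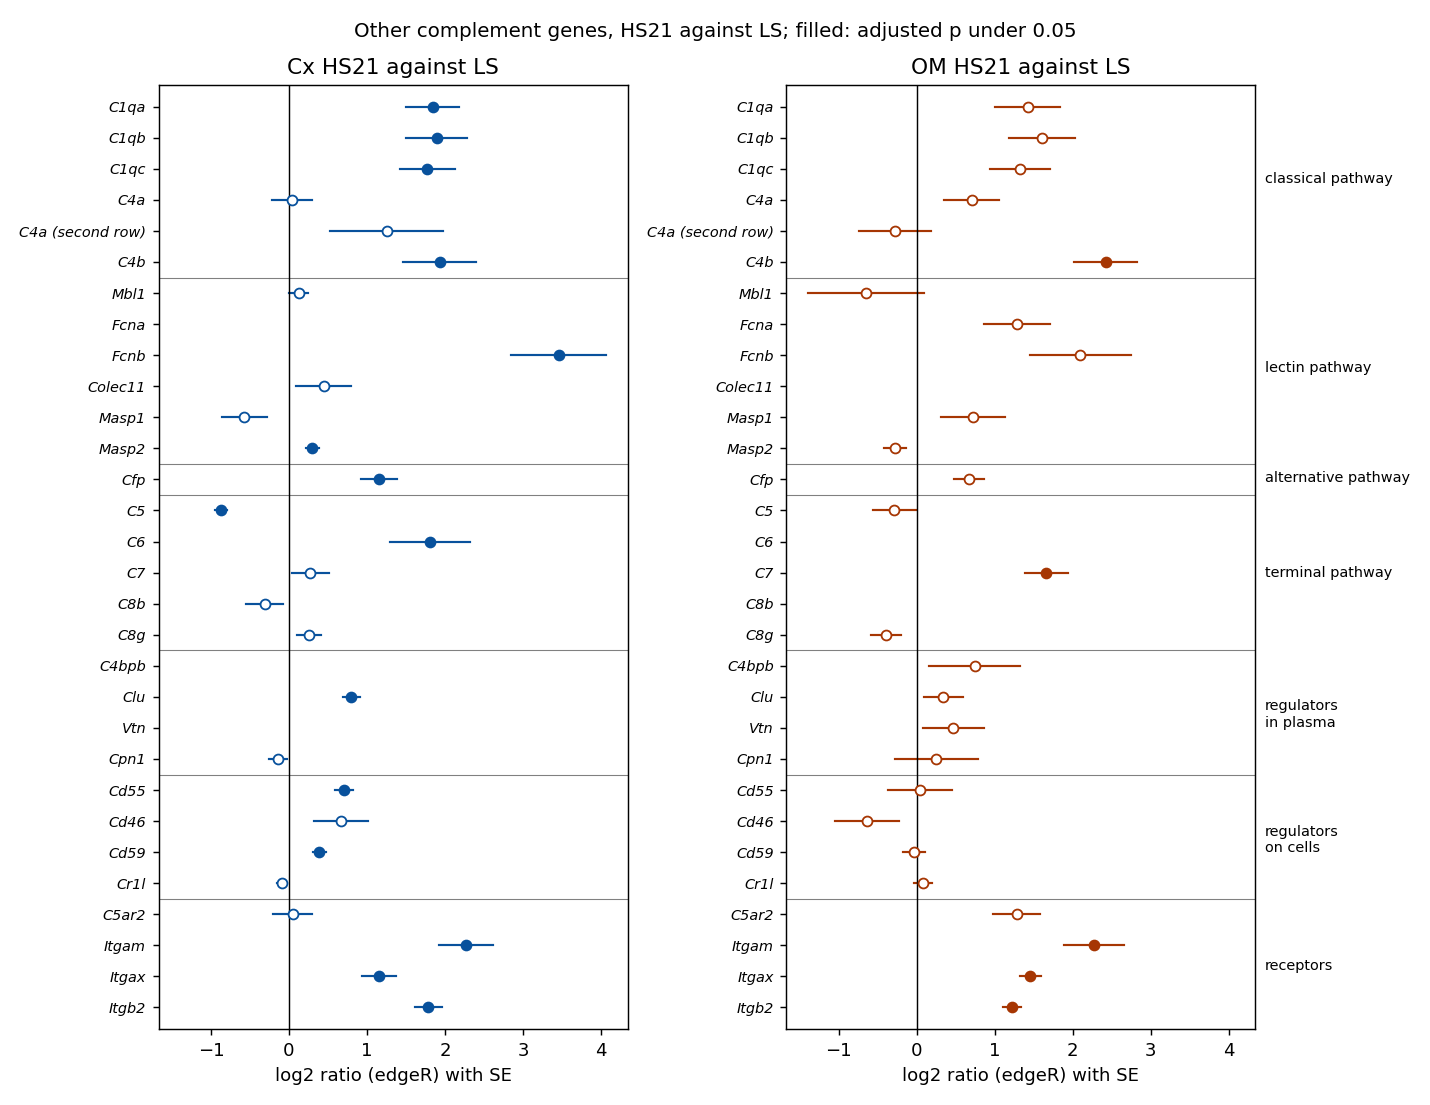
Log2 ratio of HS21 to LS with its SE (x) for the other complement genes that could be tested, grouped by role, in Cx (left) and OM (right), with filled points for an adjusted *P* under 0.05. In Cx 14 points to the right of 0 and *C5* to the left are filled, and in OM the filled points are *C4b*, *C7*, *Itgam*, *Itgax* and *Itgb2*.

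The genes whose log2 CPM followed *C3* most closely over the 15 Cx libraries, among 13309 genes, were *Cd74* (Pearson r 0.983), the invariant chain of MHC class II, *Fyb* (0.982), an adaptor of T cells and myeloid cells, *Irf1* (0.975), an interferon regulatory factor, *Fcer1g* (0.972), a chain of Fc receptors, and *RT1-Da* (0.971), a rat MHC class II chain. Over the 15 OM libraries, among 13424 genes, they were *Tbx21* (0.966), a T cell transcription factor, *Cntfr* (0.960), a cytokine receptor chain, *Itgal* (0.951), a leukocyte integrin chain, *Fyb* (0.942) and *Ctsw* (0.936), a cathepsin of cytotoxic cells. These libraries share the 3 diets, so genes that differ between diets are alike by this measure.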

How the data were processed

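Counts per gene of 30 poly(A) libraries came from the table deposited by the authors. Per the labels and the methods, HISAT2 2.0.5 aligned the reads, StringTie 1.3.3b was also run, and featureCounts 1.5.0-p3 counted unstranded read pairs on Rnor_6.0. The deposited FPKM values were scaled by the authors for gene length and library size, and the gene length is theirs. Further deposited columns, the authors' group means after size factors (signal), log2 fold changes and p-values from DESeq2, were not used.

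Samples were grouped by their labels. The members and gene lists were chosen with earlier results of these data known. Groups were compared by edgeR 4.0.16 (R 4.3.3; filterByExpr, TMM, glmQLFit, glmQLFTest, Benjamini-Hochberg over all genes tested, threshold 0.05), fitted on the 10 libraries compared, or 20 for the interaction. CPM used TMM library sizes, with a prior count of 2 on the log2 scale. Each member was named. Of the list of other complement genes, 1 gene is not reported here and was left out of its counts. Other complement genes were named if called at HS21, up to 2 per role and direction, besides *C1qa*, *C1qb*, *C1qc*, *C4a*, *C4b* and *C5* and the 5 genes most like *C3* per tissue, and *Itgb2* in OM was added after its value was seen. Alternatives were DESeq2 1.42.0, limma 3.58.1 on log2(FPKM + 1), other scalings and filters, 1 fit of all libraries, the intron share of mapped bases from the study's mapping table as a covariate, a replicate block and leaving out each library. The procedure was tested on simulated data. No pair of libraries was a duplicate (60 pairs, chi-square per degree of freedom at least 7.29). P-values measure the spread between libraries, and the labels do not say more of their source. Between 5408126 and 21842843 counts per library set the precision.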

Additional observations from a re-analysis of the deposited data

Results flagged for a closer look

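Within groups of 5 libraries, 162 sets of CPM values of the members and of the other named complement genes were searched for a library that stood far from the rest, by Dixon's ratio above 0.71. Chance flags about 1 in 20 such sets, and 4 were found, none of them of a member. *C1qa* in Cx HS14 was low in replicate 10, with 24.9 CPM against 37.8 CPM in the next library. The second row named *C4a* in OM HS14 was high in replicate 6, with 18.3 CPM against 4.05 CPM. *C4b* in OM LS was high in replicate 2, with 6.63 CPM against 3.50 CPM. *C6* in OM HS14 was high in replicate 9, with 0.427 CPM against 0.123 CPM, values of a few counts. No explanation of these values was tested.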

How the results depend on the processing

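The number of members raised in Cx at HS21 stayed within 1.5 times the reported 7 under every alternative. At HS14 it was 6 with DESeq2, 0 with limma and 0 with all 30 libraries in one fit, in place of 3, and 0 to 6 over the leave-one-out fits. For Cx HS21 against HS14 it was 1 with total-count scaling, 1 with DESeq2 and 1 with all libraries in one fit, in place of 0, and 0 to 2 when leaving out a library. For OM HS21 it was 4 with DESeq2, 2 with limma, 4 with all libraries and 0 with the intron share as a covariate, in place of 1, and 0 to 2 when leaving out a library. Between tissues on LS, the members higher in OM went from 1 to 2 when leaving out a library. The 1 member lower in OM became 0 with total-count scaling, 0 without the low-count filter, 0 with the intron share and 0 with the replicate block, and 0 to 1 when leaving out a library. The causes were not tested.

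Signs turned only among log2 ratios that did not pass the test. With the intron share, *Cfi* in Cx HS21 against HS14 was 0.35, *C1s* and *C5ar1* in OM HS21 against HS14 were -0.12 and -0.022, and *C2*, *C1r* and *C5ar1* in OM LS against Cx LS were -0.083, -0.036 and -0.31. With total counts the second *C2* row was 0.12 between tissues. The interaction turned for the second *C2* row (-0.013) and *C1r* (-0.023) with total counts, for *C5ar1* with DESeq2 (0.0020), for *C1s* (0.14) and *C5ar1* (0.14) with limma, and for *C1r* (-0.16), *Cfi* (0.74) and *C5ar1* (0.021) with the intron share. Leaving out 1 library spread the second *C2* row from -0.20 to 0.35 in Cx HS14 and from -0.53 to 0.065 between tissues, *Cfi* in OM HS14 from -0.019 to 0.43, *C1r* between tissues from -0.0097 to 0.52, and, in OM HS21 against HS14, *C1r* from -0.29 to 0.13, *C1s* from -0.13 to 0.28 and *C5ar1* from -0.082 to 0.29. The interaction ranges were -0.74 to 0.030 for *C3*, -0.089 to 0.51 for the second *C2* row, -0.058 to 0.47 for *C1r*, -0.41 to 0.23 for *C1s*, -0.38 to 0.17 for *Cfi* and -0.22 to 0.29 for *C5ar1*. Without both OM LS replicate 2 and OM HS14 replicate 10, chosen after seeing the data, *Cfi* in OM HS14 was -0.094 and no member was called.

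Replicate numbers were not taken as pairs in the main fits, since the labels do not say that equal numbers mean the same rat. Of the 15 correlations between same-numbered Cx and OM libraries, 10 exceeded 0.1 and 2 were below 0, from -0.079 to 0.46. As a hint of pairing in the data, 13 of 15 Cx libraries correlated best with the OM library of their own number. The main fits between tissues leave such pairing out. With the replicate block, *Cfi* was -1.30 in OM against Cx (adjusted *P* = 0.0765), and the interaction was 0.13 for *C1s* and 0.12 for *C5ar1*. Low counts limit the *C2* rows and *Cfi*, and the *Cfb* row gave no level.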
